A study of Mus musculus with 6 samples.

Results

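Interferon-stimulated genes and genes of antigen presentation were examined in the extensor digitorum longus (EDL), a fast-twitch muscle of the hindlimb. The set holds 40 genes, chosen by symbol, of the 24411 genes in the table, and 37 of the 40 had enough reads to be tested among 12892 genes. RNA was sequenced from 3 mAktDKO mice and 3 control mice, all C57BL/6J and 50 weeks old. Both groups carried floxed alleles of Akt1 and Akt2 (Akt1/2-floxed), and the mAktDKO mice also carried Mlc1f-Cre. This Cre is driven from a myosin light chain gene that is used mainly by fast-twitch fibres, so the other cells of the muscle, immune cells included, are not targeted. The control mice carried no Cre and had no other treatment. The mAktDKO mice are numbered 1 to 3 and the control mice 2 to 4, as in the table.

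Interferons are cytokines, and those of type I are released when a cell senses foreign or misplaced nucleic acid. Type I interferon acts through a receptor, JAK kinases and a complex that includes STAT2 and IRF9, which binds a promoter element called ISRE and turns on antiviral genes, while interferon gamma acts at an element called GAS. MHC class I, a heavy chain paired with beta-2 microglobulin, shows peptides from inside the cell on nearly all cells, whereas MHC class II is made mainly by professional antigen-presenting cells, and resting muscle fibres display little of either. The 40 genes were divided into 22 type I interferon targets, 12 MHC genes and 6 others, namely the transcription factor Irf1 and 5 interferon-inducible GTPases.

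The total estimated counts were between 13738795 and 15445523 per mouse, and 3 counts corresponded to between 0.180 and 0.227 CPM (counts scaled to a common library total), a floor that covers counting error only. Akt2 was 51.3, 49.1 and 52.7 CPM across mAktDKO mice against 172, 133 and 143 CPM across control mice. Akt1 had a log2 fold change of -0.25 (edgeR adjusted p = 0.115) in counts that cover the whole gene. With library totals in the scaling, the Akt1 value was -0.11. The 12 markers of fast-twitch fibres were abundant in every mouse, at a sum of 137693 CPM or more. Control mouse 2 stood apart in the genes examined here, with the lowest level of the 6 mice for 19 of the 37 tested members, and mAktDKO mouse 2 had the highest level for 15. Where leaving out control mouse 2 moved the value of a member by more than 1.5 times, the value without it is given here or in the closing section.

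The promoters of 4 members are shown first because each carries the ISRE through which type I interferon acts. Each sequence is the 210 bases before the RefSeq start of the gene (GRCm38.p6), written 5′ to 3′ on the strand of the gene, with every ISRE match, that is GAAA and GAAA parted by any 2 bases on either strand, in capitals. Isg15 lies at chr4:156200819-156201028 on the minus strand, Ifit1 at chr19:34640679-34640888, B2m at chr2:122147477-122147686 and Gbp7 at chr3:142530126-142530335, the last 3 on the plus strand.
Isg15: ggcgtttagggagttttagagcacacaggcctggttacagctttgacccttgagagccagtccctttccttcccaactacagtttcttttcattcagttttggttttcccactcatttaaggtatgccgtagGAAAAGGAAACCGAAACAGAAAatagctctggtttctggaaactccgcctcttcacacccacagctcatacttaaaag
Ifit1: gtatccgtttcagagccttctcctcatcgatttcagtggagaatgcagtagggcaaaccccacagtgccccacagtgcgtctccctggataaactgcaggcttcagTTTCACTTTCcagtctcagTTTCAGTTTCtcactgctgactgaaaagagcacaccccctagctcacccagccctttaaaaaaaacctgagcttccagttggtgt
B2m: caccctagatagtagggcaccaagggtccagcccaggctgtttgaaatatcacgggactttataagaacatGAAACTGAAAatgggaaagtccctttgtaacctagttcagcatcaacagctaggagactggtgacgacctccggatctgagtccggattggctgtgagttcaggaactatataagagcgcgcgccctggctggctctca
Gbp7: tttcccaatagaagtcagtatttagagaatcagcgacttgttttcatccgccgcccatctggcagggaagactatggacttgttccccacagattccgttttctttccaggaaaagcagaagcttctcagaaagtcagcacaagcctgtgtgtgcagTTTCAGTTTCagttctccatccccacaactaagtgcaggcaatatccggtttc
Isg15 holds 3 overlapping matches and Ifit1 holds 2 matches, the nearest beginning 66 and 85 bases before the start. B2m and Gbp7 hold 1 match each, beginning 139 and 53 bases before the start.

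RefSeq promoter windows, from 250 bases before to 50 after the start, were found for 29 of the 40 members, which had 34 windows. The ISRE letters (GAAA, any 2 bases, GAAA), searched on both strands, were present in 15 of the 34 windows (44.1%), against 3.44% of all 32851 promoter windows. By group, 9 of 18 windows of type I interferon targets (50.0%), 1 of 8 windows of MHC genes (12.5%, B2m) and 5 of 8 windows of the other members (62.5%) held a match. The search required every fixed letter, so a window without a match may still hold a variant of the element. The stretches of H2-K1 and H2-D1 printed below both hold agtttcacttct, which these letters do not match. The matches of the RNA sensors Ifih1 and Ddx58 lay just after the start, at bases 32 and 2. The GAS letters TTCNNNGAA, which read the same on both strands, were found in 7 of 34 windows (20.6%) against 8.30% of all promoters, and in 0 of the 8 MHC windows. The inverted CCAAT box ATTGG was found, on either strand, in all 8 MHC windows against 37.4% of all promoters. These 8 windows belonged to 7 of the 12 MHC genes, and the windows of H2-K1 overlap and hold the same matches. The letters of the 3 motifs differ, but their matches may overlap in a window, and a match is a description of the sequence and not a site shown to be bound.

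The question was whether loss of Akt in the fibres was accompanied by a change in interferon targets or in MHC genes. The threshold of 0.01 follows the methods of the study, where it was applied with DESeq2. Those methods also name a q value under 0.05, which was not applied here. By the quasi-likelihood test of edgeR, with p-values adjusted after Benjamini and Hochberg, 0 of the 37 tested members passed an adjusted p of 0.01, a level that 0.0233% of all genes passed. In the same fit none passed 0.05 either, where 1.18% of all genes did (0.264% higher and 0.915% lower), and the smallest adjusted p of a member was 0.0585 for B2m. With DESeq2's Wald test, the tool of those methods, B2m did pass, at an adjusted p of 0.00152, but 3.09% of the genes with an adjusted p did so too. Gbp7 was at 0.0496 in that test, under 0.05 as were 7.33% of the genes, and B2m was at an adjusted p of 0.0374 in edgeR without the filter on low counts. Without adjustment, 7 of 37 members (18.9%) had a p under 0.05 and all 7 were higher in the mAktDKO mice, beside 24.5% of all genes in either direction and 11.4% in that direction. These were B2m, H2-D1, H2-K1, Ifih1, Ddx58, Parp14 and Gbp7. In 9 of the 37 members (24.3%) every mAktDKO mouse lay above every control mouse, beside 14.6% of all genes, and in 1 member, Ifi35, every mAktDKO mouse lay below, beside 16.6% of all genes. In all, 27 members (73.0%) had a log2 fold change above 0, beside 52.5% of all genes. The median of the members was 0.21 on the log2 scale, and the median of all genes was 0.017. Without control mouse 2 the median of the members was 0.13. The 12 tested macrophage markers were likewise all above 0, with a median of 0.41, and their part in these values was not tested. The p-values set the difference between the genotypes against the spread between these mice, which edgeR estimates in part from all tested genes. In muscle RNA taken as a whole, more cells of a type and more RNA per cell cannot be told apart.

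**Figure D1:**
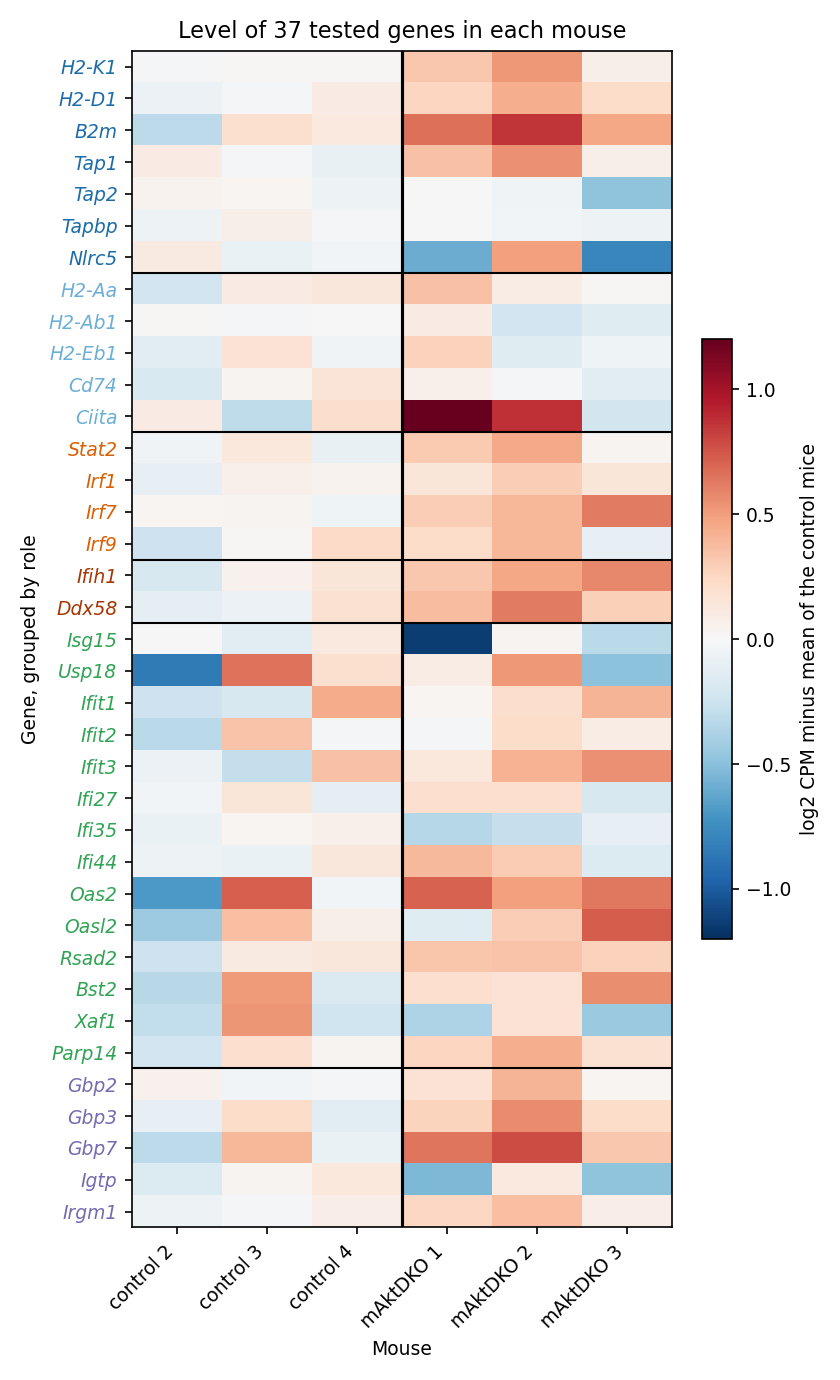
Level of the 37 tested members (rows, grouped by role) in each mouse (columns), as log2 CPM minus the mean of the 3 control mice. Red is above and blue below that mean, Ciita in mAktDKO 1 lies beyond the end of the colour scale, and B2m is redder in each mAktDKO mouse than in any control mouse, while several class II genes and antiviral effectors, such as H2-Eb1 and Xaf1, show red and blue in both groups.

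The smallest p-value among all members was that of the light chain of MHC class I. B2m, the light chain shared by all class I molecules (chr2:122147686-122153083, mm10), was 70.8, 80.9 and 61.6 CPM across mAktDKO mice against 36.1, 51.2 and 48.4 CPM across control mice. Every mAktDKO mouse lay above every control mouse, and control mouse 2 was the lowest. The log2 fold change was 0.65 (standard error 0.15, 95% interval 0.33 to 0.98, edgeR adjusted p = 0.0585), and it was 0.51 without control mouse 2.

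H2-D1, a class I heavy chain (chr17:35262730-35267499), was 70.4, 79.9 and 68.5 CPM across mAktDKO mice against 56.1, 57.8 and 63.1 CPM across control mice. The groups did not overlap, and the log2 fold change of 0.31 (standard error 0.090, edgeR adjusted p = 0.0955) was lower than that of its partner B2m. H2-K1, the other classical heavy chain (chr17:33996017-34000347), was 49.5, 56.7 and 41.6 CPM across mAktDKO mice against 38.9, 39.8 and 39.995 CPM across control mice. Its control mice were nearly alike and mAktDKO mouse 3 lay just above them, so the log2 fold change of 0.32 (standard error 0.11, edgeR adjusted p = 0.140) rested mainly on mAktDKO mice 1 and 2. Without mAktDKO mouse 2 it was 0.20.

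The 2 heavy chain genes are near copies, and reads that fit both were divided between them in the authors' counting. Their promoters are shown because the likeness extends there. The 210 bases before each RefSeq start are given as above, H2-K1 at chr17:34000348-34000557 on the minus strand and H2-D1 at chr17:35262884-35263093 on the plus strand. The gene position of H2-D1 given earlier is from GENCODE and begins before this stretch, so RefSeq and GENCODE place its start differently. The capitals mark the longest run that both stretches share.
H2-K1: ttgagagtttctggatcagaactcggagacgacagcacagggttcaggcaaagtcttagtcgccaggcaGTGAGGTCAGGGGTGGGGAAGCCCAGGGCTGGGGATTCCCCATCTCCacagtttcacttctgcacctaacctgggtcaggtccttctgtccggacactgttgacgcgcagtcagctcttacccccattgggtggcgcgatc
H2-D1: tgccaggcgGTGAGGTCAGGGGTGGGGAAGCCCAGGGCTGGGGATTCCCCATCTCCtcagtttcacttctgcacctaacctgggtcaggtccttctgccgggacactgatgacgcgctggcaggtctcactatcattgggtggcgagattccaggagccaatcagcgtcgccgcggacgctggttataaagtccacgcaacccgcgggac
This run of 47 bases begins 141 bases before the RefSeq start of H2-K1 and 201 bases before that of H2-D1, and no other gene among the 32851 windows holds it. Because of the shared reads, the counts of both genes were also added before the fit, a step chosen after seeing the data. The sum was 120.0, 136.6 and 110.1 CPM across mAktDKO mice against 94.9, 97.6 and 103.1 CPM across control mice. All mAktDKO mice lay above all control mice, with a log2 fold change of 0.31 (standard error 0.095, edgeR adjusted p = 0.104), close to the value of each gene alone.

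The genes that load peptides onto class I had overlapping groups. Tapbp, which encodes tapasin, the bridge between the peptide transporter and class I, was 49.8, 48.8 and 47.9 CPM across mAktDKO mice against 48.0, 52.7 and 49.4 CPM across control mice. The groups overlapped, and the log2 fold change was -0.035 with a 95% interval of -0.21 to 0.14, which ends below the interval of B2m. Tap1, one chain of the peptide transporter, was 4.50, 5.15 and 3.70 CPM against 3.78, 3.50 and 3.33 CPM across control mice, a log2 fold change of 0.33 (95% interval -0.082 to 0.75). Tap2, the other chain, was 11.0, 10.7 and 7.89 CPM against 11.3, 11.2 and 10.5 CPM, a log2 fold change of -0.16 (95% interval -0.48 to 0.17). Neither interval left out 0. Tap1 was at 0.22 without mAktDKO mouse 2, and Tap2 was at -0.040 without mAktDKO mouse 3 and -0.24 without mAktDKO mouse 1. Nlrc5, the transactivator of class I genes, was low and scattered in the mAktDKO mice, at 1.33, 2.82 and 1.17 CPM against 2.17, 1.90 and 1.97 CPM. Its 95% interval of -0.96 to 0.62 allows a change in either direction, and the log2 fold change of -0.17 was -0.11 without control mouse 2.

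MHC class II genes showed no difference that exceeded the spread between mice. Cd74, the invariant chain that guides class II through the cell and the most abundant of these genes, was 37.2, 35.2 and 32.4 CPM across mAktDKO mice against 31.3, 36.5 and 39.7 CPM across control mice. The groups overlapped throughout, with a log2 fold change of -0.036 and a 95% interval of -0.28 to 0.21. Among the chains of the class II molecule, the log2 fold changes were 0.15 for H2-Aa, -0.085 for H2-Ab1 and 0.032 for H2-Eb1, all with overlapping groups. The levels of these 3 chains were between 7.73 and 12.6 CPM over the 6 mice. Without control mouse 2 the values were 0.044 for H2-Aa, -0.035 for H2-Eb1 and -0.13 for Cd74. Ciita, the transactivator of class II, was 1.84, 1.32 and 0.617 CPM against 0.769, 0.584 and 0.832 CPM across control mice. Its log2 fold change of 0.79 was the highest of all members but also had the widest error (standard error 0.43), and mAktDKO mouse 3 lay within the control mice. Without mAktDKO mouse 1 it was 0.42, below B2m, Gbp7, Ifih1, Irf7, Oasl2, Ddx58, Ifit3 and Oas2 in the same fit. Per kilobase of exon, B2m was the most abundant member, at 52.6 CPM across control mice and 82.7 CPM in the mAktDKO mice. H2-D1 followed at 22.9 and 28.3, Cd74 at 21.3 and 20.8, Tapbp at 13.8 and 13.5 and H2-K1 at 13.5 and 16.8 CPM per kilobase.

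**Figure D2:**
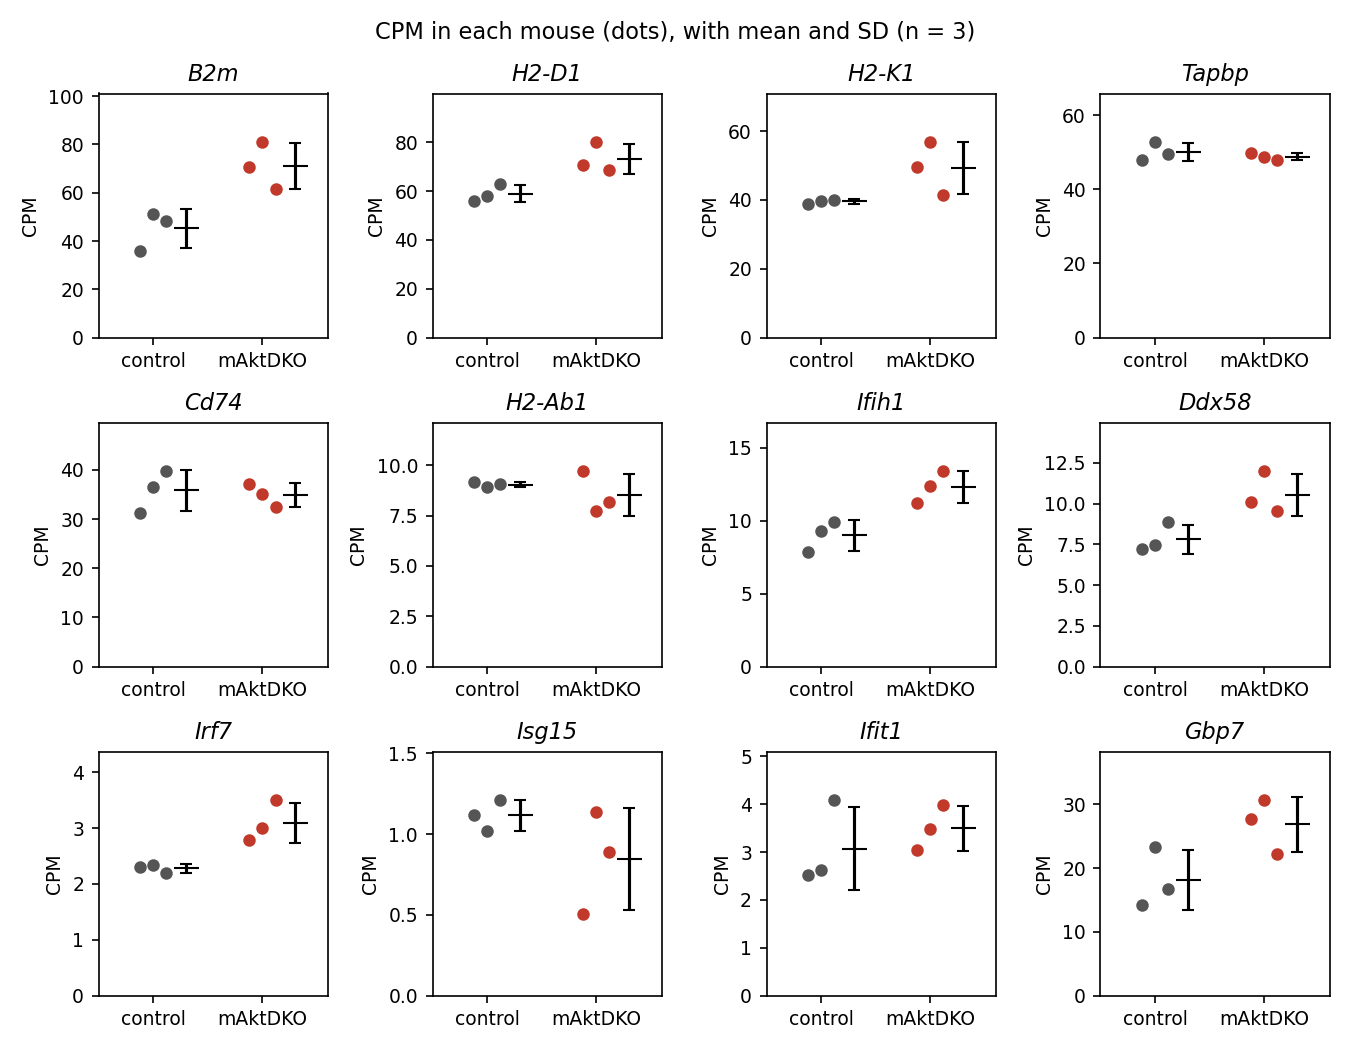
CPM of 12 members in each mouse (dots, control mice in grey in the order 2 to 4 and mAktDKO mice in red in the order 1 to 3), with the mean and SD of each group (n = 3) beside them, on axes that start at 0. The groups are apart for B2m, H2-D1, H2-K1, Ifih1, Ddx58 and Irf7 and overlap for the other 6 genes.

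Among the type I interferon targets, the cytosolic RNA sensors had the smallest p-values. Ifih1, which encodes the sensor MDA5 for long double-stranded RNA, was 11.2, 12.3 and 13.4 CPM across mAktDKO mice against 7.83, 9.26 and 9.90 CPM across control mice. The groups did not overlap, and the log2 fold change was 0.45 (standard error 0.13, edgeR adjusted p = 0.0922). Ddx58, which encodes RIG-I, the sensor for RNA with a 5′ triphosphate, was 10.1, 12 and 9.53 CPM against 7.20, 7.44 and 8.85 CPM. These groups were also apart, with a log2 fold change of 0.43 (standard error 0.14, edgeR adjusted p = 0.119). Leaving out each mouse in turn, the log2 fold change stayed between 0.36 and 0.52 for Ifih1 and between 0.33 and 0.52 for Ddx58.

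All 4 interferon transcription factors had log2 fold changes above 0, and none had an unadjusted p under 0.05. Irf7, which drives the amplifying phase of the type I response, was 2.79, 3.00 and 3.50 CPM across mAktDKO mice against 2.31, 2.33 and 2.19 CPM across control mice. Every mAktDKO mouse lay above every control mouse, but at these low counts the difference of 0.44 on the log2 scale had a standard error of 0.20 (edgeR adjusted p = 0.212). Irf1, which acts at class I promoters downstream of interferon gamma, was 7.86, 8.75 and 7.89 CPM against 6.64, 7.44 and 7.33 CPM, also without overlap, with a log2 fold change of 0.19. Stat2 and Irf9, members of the type I complex, had log2 fold changes of 0.28 and 0.18 with overlapping groups, and Irf9 was at 0.068 without control mouse 2, its lowest mouse.

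The antiviral effectors were mixed. Of the 17, 14 were tested, 10 with a log2 fold change above 0 and 4 below. Rsad2, which encodes the radical SAM enzyme viperin, was 8.05, 8.09 and 7.75 CPM across mAktDKO mice against 5.38, 6.86 and 7.03 CPM across control mice. It was the only tested effector with all mAktDKO mice above all control mice (log2 fold change 0.31, edgeR adjusted p = 0.215). Without control mouse 2, its lowest mouse, the value was 0.20. Parp14, a mono-ADP-ribosyltransferase and the most abundant effector in CPM, was 25.3, 28.5 and 24 CPM against 18.0, 24.4 and 21.5 CPM, and its groups overlapped slightly (log2 fold change 0.29, edgeR adjusted p = 0.203). It too was lowest in control mouse 2, without which the log2 fold change was 0.18. Ifi35, an interferon-induced leucine zipper protein, went the other way, at 5.33, 5.57 and 6.31 CPM against 6.36, 6.86 and 7.03 CPM (log2 fold change -0.24, edgeR adjusted p = 0.314).

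Isg15 and the Ifit genes had overlapping groups. Isg15, a ubiquitin-like modifier, was 0.507, 1.14 and 0.891 CPM across mAktDKO mice against 1.12, 1.02 and 1.21 CPM across control mice. It was lower on average, with a log2 fold change of -0.39, but the 95% interval of -1.21 to 0.42 was wide at this level. The value was -0.68 without mAktDKO mouse 2 and -0.13 without mAktDKO mouse 1. Ifit1, which binds viral RNA that lacks cap methylation, was 3.04, 3.47 and 3.98 CPM against 2.52, 2.63 and 4.08 CPM, and control mouse 4 was the highest of the 6 (log2 fold change 0.19, 95% interval -0.35 to 0.72). Without control mouse 2, its lowest, the value was 0.060. Its relatives Ifit2 and Ifit3 had log2 fold changes of 0.076 and 0.35. Usp18, which removes ISG15 from proteins and dampens the receptor, was close to 0 at -0.014 (95% interval -0.96 to 0.93). Of the 4 genes whose ISRE matches are printed above, Isg15, Ifit1 and Gbp7 had overlapping groups, and B2m had groups that were apart.

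The other tested effectors had overlapping groups. Oas2, which makes the second messenger of RNase L, differed by 0.50 on the log2 scale (standard error 0.35), and Oasl2, a relative, 0.30. The values were 0.27 for Bst2, the virion tether tetherin, 0.20 for Ifi44, 0.078 for Ifi27 and -0.23 for Xaf1. Oas2, Oasl2 and Bst2 had their lowest level in control mouse 2, and without it their log2 fold changes were 0.21, 0.11 and 0.11. Oasl2 was at 0.046 without mAktDKO mouse 3. For Xaf1 the value without control mouse 2 was -0.38. Oas1a, Mx1 and Mx2 did not have enough reads to be tested. Oas1a was between 0.380 and 1.06 CPM over the 6 mice. Mx1 and Mx2, dynamin-like antiviral GTPases, were at most 0.240 and 0.419 CPM, near the floor of 3 counts, and the inbred strain C57BL/6J is known to carry defective Mx genes.

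The interferon-inducible GTPases, which attack the vacuoles of intracellular pathogens, were led by Gbp7, at 27.6, 30.6 and 22.2 CPM across mAktDKO mice against 14.3, 23.3 and 16.8 CPM across control mice. Control mouse 3 lay above mAktDKO mouse 3, and the log2 fold change was 0.57 (standard error 0.18, edgeR adjusted p = 0.118). Gbp3 was 5.64, 6.95 and 5.49 CPM against 4.40, 5.47 and 4.31 CPM, apart by a narrow margin (log2 fold change 0.35). Irgm1 and Gbp2 had log2 fold changes of 0.23 and 0.21 with overlapping groups, and Gbp2 was at 0.10 without mAktDKO mouse 2. Igtp differed in sign, at 5.33, 8.39 and 5.55 CPM against 6.92, 7.95 and 8.47 CPM (log2 fold change -0.27, 95% interval -0.71 to 0.17), and its value was -0.51 without mAktDKO mouse 2 and -0.15 without mAktDKO mouse 1. Gbp3, Gbp7 and Igtp are among 9 members with fractional counts, in which reads were shared with similar genes, as are H2-K1, H2-D1, Ciita, Ifit1, Ifit3 and Oas1a.

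**Figure D3:**
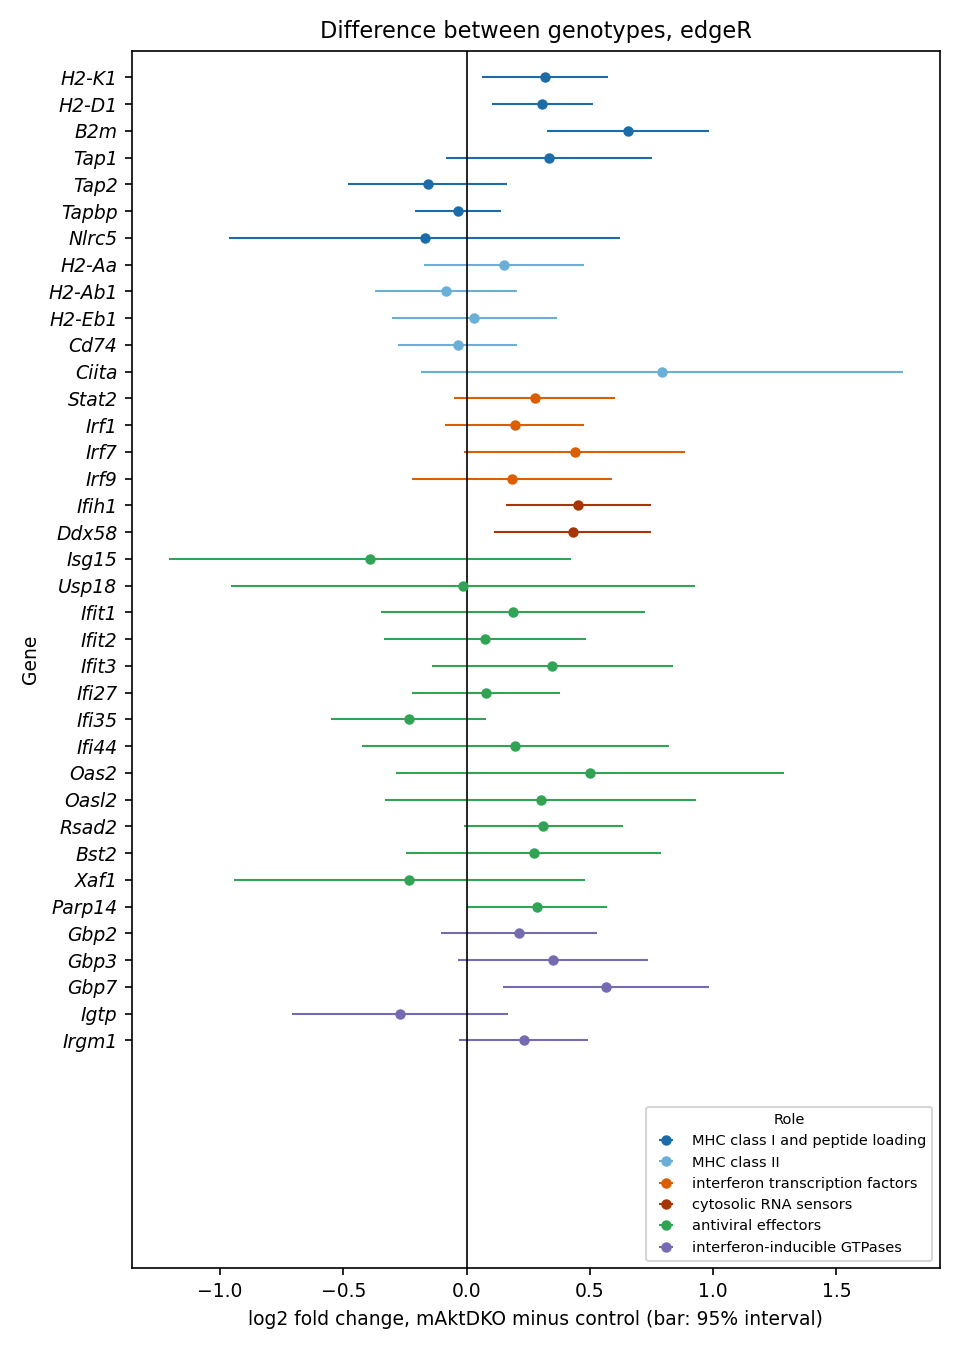
Log2 fold change between mAktDKO and control mice for each tested member (points, coloured by role) with its 95% interval (bars) from edgeR. The intervals of 7 genes, B2m, H2-D1, H2-K1, Ifih1, Ddx58, Parp14 and Gbp7, lie above 0, the lower end of Parp14 being 0.00064.

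Type I interferon targets were then set beside MHC genes. Of the 19 type I targets tested, 15 were above 0 and 4 below, 3 (15.8%) had an unadjusted p under 0.05, 4 (21.1%) had all mAktDKO mice above all control mice, and 1, Ifi35, had them below. Of the 12 MHC genes, 7 were above 0 and 5 below, 3 (25.0%) had an unadjusted p under 0.05, and 3 (25.0%) had groups apart. Of all genes, 52.5% were above 0, 11.4% were higher at an unadjusted p under 0.05, and 14.6% had all mAktDKO mice above. With library totals in the scaling, which moved the median of all genes to 0.16, 16 of the 19 and 10 of the 12 were above 0, as were 70.4% of all genes. With TMM, the medians were 0.27 for the type I targets and 0.092 for the MHC genes, beside 0.017 for all genes. Within the MHC genes, the median was 0.31 for class I and peptide loading and 0.032 for class II. Without control mouse 2 the median of the type I targets was 0.11 and that of the MHC genes 0.0048, whereas the lowest value for the MHC genes without another mouse was 0.023, reached without mAktDKO mouse 1. The order of the 2 medians was the same with each mouse left out, but the difference ranged from 0.039 to 0.25.

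The mean level of each list was also compared by mouse, as log2 CPM minus the mean of the control mice. For the type I targets it was 0.099, 0.30 and 0.16 in the mAktDKO mice and -0.22, 0.15 and 0.068 in the control mice, so mAktDKO mouse 1 lay below control mouse 3. For the MHC genes it was 0.25, 0.27 and -0.079 in the mAktDKO mice and -0.056, 0.017 and 0.039 in the control mice, and mAktDKO mouse 3 was the lowest of all. Neither list therefore separated the 2 genotypes as a whole, and the mouse that crossed differed between the lists. Averaged over the mAktDKO mice, the value was 0.19 for the type I targets and 0.15 for the MHC genes. These means lay closer together than the medians of the log2 fold changes.

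**Figure D4:**
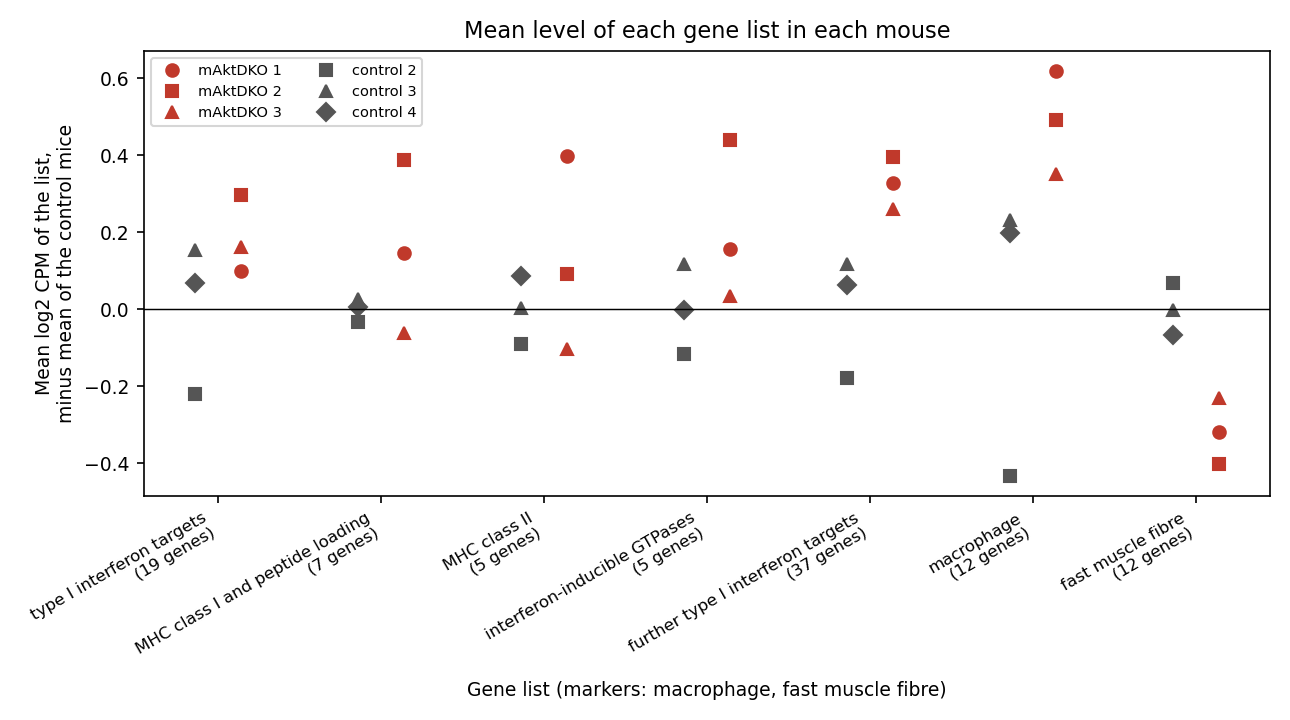
Mean log2 CPM of the tested genes of 7 lists in each mouse, minus the mean of the 3 control mice (control mice in grey, mAktDKO mice in red, with a marker shape for each mouse). The genotypes overlap for the type I targets, class I, class II and the GTPases, and they are apart for the further type I targets, the macrophage markers and the fast fibre markers, with control mouse 2 the lowest grey point in the first 6 lists.

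The rest of the pathway was described from gene lists. The 10 interferon genes listed, among them Ifnb1 and Ifng, had 0 counts in every mouse, which allows up to 0.227 CPM. Of 10 tested receptors and kinases, 7 were above 0 and 5 had an unadjusted p under 0.05, all 5 higher in the mAktDKO mice, beside 11.4% of all genes. Ifnar1, a chain of the type I receptor, was 31.1, 30.6 and 28.3 CPM across mAktDKO mice against 19.9, 25.0 and 25.9 CPM across control mice (log2 fold change 0.35, edgeR adjusted p = 0.119). Every mAktDKO mouse lay above every control mouse. The log2 fold change was 0.61 for Il10rb, 0.40 for Ifnar2 and 0.19 for Jak1, whereas the receptor chains of interferon gamma, Ifngr1 and Ifngr2, were at 0.056 and -0.11.

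The list for nucleic acid sensing upstream of interferon holds sensors and also genes that act with them, such as adaptors, kinases and transcription factors. Of its 14 tested genes, 8 were above 0 and 6 below. At an unadjusted p under 0.05, 3 were higher and 1 lower, and 0 had all mAktDKO mice above all control mice. Of all genes, 11.4% were higher and 13.1% lower at that p, and 14.6% had all mAktDKO mice above. Tlr7, an endosomal receptor for single-stranded RNA, had a log2 fold change of 0.82, and Irf5, a factor downstream of Toll-like receptors, -0.61. Of 8 feedback inhibitors, 6 were above 0, and Socs3, an inhibitor of JAK kinases, had 0.49 with groups apart. None of these genes passed the adjusted threshold.

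A further 37 tested type I interferon targets that are no members were examined in the same way. Of these, 35 were above 0, 13 (35.1%) had an unadjusted p under 0.05, all higher, and in 16 (43.2%) every mAktDKO mouse lay above every control mouse, beside 11.4% and 14.6% of all genes. Their median was 0.31, and 0 of the 37 passed an adjusted p of 0.05 with edgeR. With DESeq2's Wald test 26 of the 37 had an adjusted p, of which 2, Ifitm2 and Ifi203, were under 0.05, beside 7.33% of the genes with an adjusted p. Ifitm3, which blocks virus entry at endosomes, was 23.1, 25.2 and 20.3 CPM across mAktDKO mice against 16.5, 18.6 and 16.8 CPM across control mice (log2 fold change 0.40, edgeR adjusted p = 0.0829). Ifi203, of the family of interferon-inducible DNA-binding proteins, had a log2 fold change of 0.65 (edgeR adjusted p = 0.0699) and Ifitm2 0.71 (edgeR adjusted p = 0.0856). Without control mouse 2 the median was 0.25, 33 of the 37 were above 0, 8 (21.6%) had an unadjusted p under 0.05 and 19 (51.4%) had groups apart, beside 9.05% and 19.1% of all genes in that fit, where 3 mice stood against 2.

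All 10 further GTPases tested were above 0, 3 of them with an unadjusted p under 0.05 beside 11.4% of all genes. Gbp4 had a log2 fold change of 0.72 with groups apart (edgeR adjusted p = 0.0733). The mean log2 CPM of this list, minus that of the control mice, was 0.81 in mAktDKO mouse 2. In mAktDKO mice 1 and 3 it was 0.21 and 0.19. Several of these genes, among them Gbp4, Gbp9 and Iigp1, had fractional counts, in which reads were shared with similar genes. Of 16 further class I genes, among them chaperones and proteasome subunits, 11 were above 0 and only H2-T22, a non-classical class I gene, had an unadjusted p under 0.05 (log2 fold change 0.74). Of 9 further class II genes, 7 were above 0 and only Ctsh, a lysosomal protease, had an unadjusted p under 0.05 (log2 fold change 0.55).

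**Figure D5:**
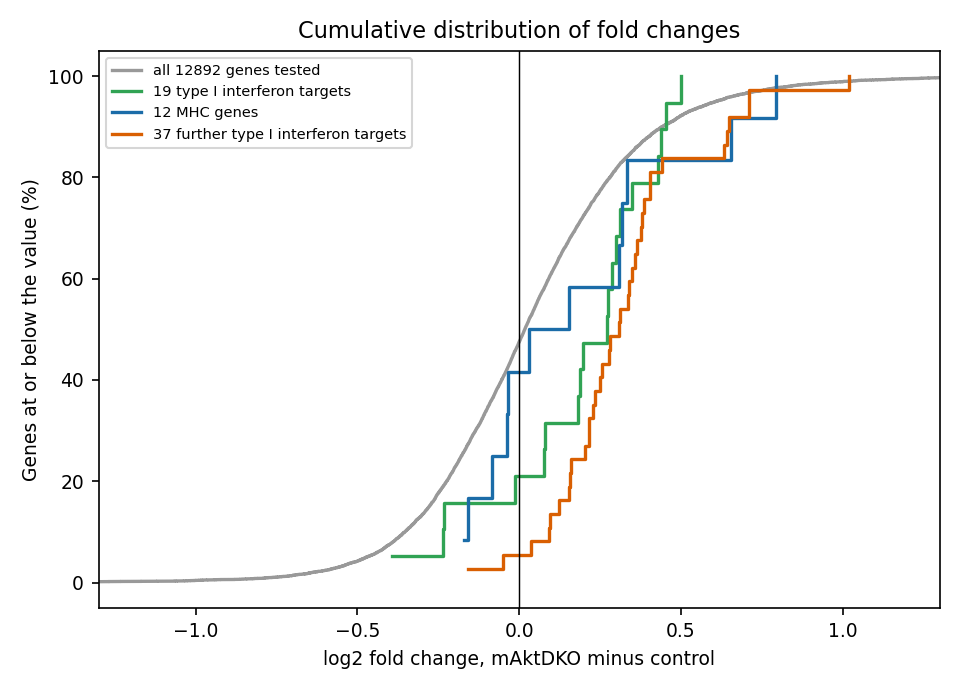
Share of genes (vertical axis, %) at or below each log2 fold change (horizontal axis) for all 12892 genes tested, the 19 type I interferon targets, the 12 MHC genes and the 37 further type I targets. The curve of all genes crosses 0 near 47.5%, whereas 4 of 19, 5 of 12 and 2 of 37 genes of the 3 lists lie below 0.

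Markers of other cells were examined beside these genes. All 12 tested macrophage markers of 13 listed were above 0 (median 0.41 on the log2 scale), and 4 had an unadjusted p under 0.05, beside 11.4% of all genes. Their summed level was 161 to 198 CPM across mAktDKO mice against 109 to 169 CPM across control mice, and control mouse 2 was the lowest. Without control mouse 2 the median was 0.20. Cd68, a lysosomal protein of macrophages, was 3.42, 3.29 and 2.74 CPM against 0.909, 2.55 and 1.51 CPM. The 12 fast fibre markers were all below 0, and their sum was 137693 to 153578 CPM against 159328 to 171238 CPM. Adipocyte markers were above 0 in 4 of 4 (median 0.94, 3 with an unadjusted p under 0.05), at a sum of 148 to 223 CPM against 127 to 154 CPM. Tendon markers were above 0 in 3 of 3 with groups apart (median 0.59), beside 14.6% of all genes with all mAktDKO mice above. Scx was apart only narrowly, at 10.15 CPM in mAktDKO mouse 3 against 10.13 CPM in control mouse 4. The sum of the tendon markers was 782 to 1192 CPM against 573 to 740 CPM. Markers of fibro-adipogenic cells were above 0 in 5 of 6 (median 0.44), those of slow fibres in 5 of 5 (median 0.44) and those of erythroid cells in 5 of 5 (median 0.47). The sums of these last 3 lists overlapped between the groups. Hbb-bs, a beta-globin, was the only marker with an edgeR adjusted p under 0.05 (adjusted p = 0.0180). It was 23.5, 9.23 and 10.01 CPM across mAktDKO mice and listed at 0 in each control mouse, but reads are divided among near-identical beta-globin genes and its value is uncertain. Endothelial markers summed to 578 to 645 CPM against 497 to 611 CPM. Of 8 dendritic cell markers 2 were tested, and the summed level was 6.79 to 8.75 CPM against 8.02 to 9.51 CPM. None of the markers of B cells, T and NK cells or neutrophils had enough reads to be tested, Cd3d, Cd8b1 and Retnlg were at 0 in all mice, and each of these lists summed to at most 1.38 CPM in a mouse. The part of these cells and of fibre content in the differences of the members was not tested.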

How the data were processed

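RNA of EDL from 3 mAktDKO and 3 control mice was analysed. The authors depleted rRNA, sequenced directional libraries (paired-end, 37 bp), mapped the reads to mm10 with STAR and deposited RSEM 1.3.1 expected counts for 24411 genes, with no scaling of one mouse to another. RSEM divides reads that fit similar genes, and 3.36% to 4.09% of the values per mouse were not whole. The counts were rounded, filtered with filterByExpr (minimum count 10), normalized by TMM, and compared with edgeR 4.0.16 (quasi-likelihood, Benjamini-Hochberg over 12892 genes). A gene was called at an adjusted p under 0.01, which the study used with DESeq2 beside a q value under 0.05. CPM values use TMM-scaled totals, and log2 CPM values a prior count of 2. The control columns, numbered 2 to 4, were assigned to the group only. The members and lists were chosen with earlier results of these data known, and all 40 members were described. Exons are from GENCODE and promoters from RefSeq. On simulated counts with 200 genes changed 2-fold, edgeR recovered 119 with 4 false calls at 0.01, and 140 with 14 false calls at 0.05. The largest fold of a member was 1.73 (Ciita), so recovery of differences as small as those of the members was not tested. The alternatives were DESeq2 1.42.0, other scalings, no filter, an adjusted p under 0.05 and leaving out each mouse. R 4.3.3 was used. The result of 1 gene of the pathway lists is not reported here.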

Additional observations from a re-analysis of the deposited data

How the results depend on the processing

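The depth limits members such as Isg15, Usp18, Ciita, Nlrc5 and Xaf1, since each lay under 3 CPM in every mouse. Of 437 values of single members under the alternatives, 422 kept their direction and side of the threshold, 14 changed sign and 1, B2m with DESeq2, passed the threshold. The 437 include the 37 values at an adjusted p under 0.05, which reuse the main fit, so their direction could not change. With DESeq2, 328 genes and 1 member passed. Without the filter on low counts 32 genes passed, and at an adjusted p under 0.05 152 genes. Under library totals instead of TMM, the median of all genes moved from 0.017 to 0.16, 14 members had an unadjusted p under 0.05, all higher, beside 23% of all genes, and the log2 fold changes of Tapbp (0.10), H2-Ab1 (0.055), Cd74 (0.10) and Usp18 (0.13) turned positive. Leaving out each mouse in turn gave 0 to 8 genes past the threshold and 0 members. Members at an unadjusted p under 0.05 numbered 4 to 10 (10 without control mouse 3, 4 without mAktDKO mouse 2, of which 3 higher), beside 6.28% to 12.5% of all genes higher, and 12 to 19 had groups apart (19 without mAktDKO mouse 3), of which 9 to 18 higher, beside 17.0% to 21.9% of all genes. The median of the type I targets ranged from 0.11 to 0.34, that of the MHC genes from 0.0048 to 0.16, and their difference from 0.039 to 0.25, against 0.18 with all mice. Values that changed sign ranged from -0.065 to 0.0014 for Tapbp, -0.68 to 0.033 for Nlrc5, -0.11 to 0.12 for H2-Eb1, -0.13 to 0.042 for Cd74, -0.34 to 0.34 for Usp18, -0.076 to 0.27 for Ifit2 and -0.46 to 0.082 for Xaf1. With each mouse left out, 10 of the 37 members (H2-D1, B2m, Irf1, Irf7, Ifih1, Ddx58, Ifi35, Gbp3, Gbp7 and Irgm1) stayed within 1.5 times of their value. Among those that did not, the range was -0.19 to -0.017 for H2-Ab1, 0.18 to 0.37 for Stat2, 0.063 to 0.30 for Irf9, 0.060 to 0.44 for Ifit1, 0.22 to 0.54 for Ifit3, 0.015 to 0.18 for Ifi27, 0.092 to 0.33 for Ifi44, 0.21 to 0.94 for Oas2, 0.046 to 0.49 for Oasl2 and 0.11 to 0.57 for Bst2. The cause of these changes was not tested. No paired analysis was possible because the numbers of the control columns do not match those of the labelled control mice.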
